A study of Sus scrofa with 6 samples.

Results

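The microRNAs of the developing deciduous molar of the miniature pig were compared here between embryonic day 50 and embryonic day 60, on the single array that hybridised the day-50 and the day-60 deciduous molar germ RNAs together. This is 1 of the 6 two-colour arrays of the series and it holds 2 of its 12 RNAs. The series covers deciduous incisor, canine, premolar and molar germs of the pig (Sus scrofa) at days 40, 50 and 60, with 1 RNA per tooth and day. The title of the array of incisor and canine day-50 RNAs names day 60 for the incisor, against its description, headings and channel labels, which were followed. Germs were dissected under a microscope without further treatment named in the labels, which do not say how many germs or litters went into an RNA, and both RNAs of the array were total RNA of whole germs of the same tooth type. The array was chosen by its name, and every one of its 742 experimental probes, each printed as 4 spots, was examined.

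Which RNA sits in which column of the array is not settled by the deposited sources. The heading of the left density column names the day-50 molar and that of the right column the day-60 molar, and all ratios below follow these headings as log2 of day 50 over day 60. The labels give Cy3 to day 60 and Cy5 to day 50, whereas on the other 5 arrays the RNA headed on the left is the one labelled Cy3. The left column had the brighter blank spots on all 6 arrays, with medians of 132 to 273 on the left and 39.15 to 100.1 on the right. The authors' processed log2 values for the array run in the same direction as the headings (Pearson r = 0.75 over the 342 measured probes, which share the array and its spots, and 0.93 over the 312 above background in both RNAs), whereas on the other 5 arrays they run right over left (r = -0.93 to -0.78 over the probes measured on each). By the headings, the authors' values thus run as the RNA named first in the description over the one named second, on all 6 arrays. If the headings of the array are exchanged, every sign and every "higher in" below turns around and all sizes stay as they are. With 1 RNA per condition there is no replicate check and no test. The SD given with each ratio is that of the 4 spots and covers measurement on this array only, and the small number of arrays limits the precision.

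MicroRNAs are short RNAs that guide Argonaute proteins to messenger RNAs, mostly through the seed near their 5′ end, and lower the output of the messages they pair with. A tooth germ is built from oral epithelium, which forms the enamel organ, and neural-crest mesenchyme, which forms the dental papilla and follicle. The miR-200 and miR-205 microRNAs are known as epithelial, and the miR-199a and miR-214 pair as mesenchymal. The RNA of a whole germ mixes both tissues.

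The 8 probes whose ratio between the molar RNAs reached 2-fold, in the same direction in every spot, are shown first. Sequences are the targets that the probes were designed for, as the deposited spot file gives them, 5′ to 3′. Capitals mark bases 2 to 8, the seed. miR-215 is added as the seed partner of miR-192, and a second probe carrying the name miR-218-5p because the sequences under that name differ.
miR-192: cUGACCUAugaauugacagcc
miR-215: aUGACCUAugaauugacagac
PC-5p-42602: uGGGAAAGuuggacagc
miR-210: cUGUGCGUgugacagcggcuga
miR-218-5p-18206: gGUGGAACgauggaaacggaac
miR-218-5p-53526: uUGUGCUUgaucuaaccaugug
PN-599-5p-187: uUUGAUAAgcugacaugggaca
PC-5p-41107: gAACGCGGccugaguggu
PC-5p-26373: aGGUGCGGccacuuguu
miR-224: cAAGUCACuagugguuccguuua

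The families that leaned to one column are shown by 1 or 2 members each, so that the shared seed can be read across names.
miR-205: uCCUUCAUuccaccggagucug
PN-200b-3p-110: uAAUACUGccugguaaugaugac
miR-148a: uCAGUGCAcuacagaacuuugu
miR-152: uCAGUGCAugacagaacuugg
miR-181a: aACAUUCAacgcugucggugaguu
miR-181c: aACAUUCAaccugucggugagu
miR-17-5p: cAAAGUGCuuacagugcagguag
miR-106a: aAAAGUGCuuacagugcagguagc
miR-92b: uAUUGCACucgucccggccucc
PN-25-3p-43: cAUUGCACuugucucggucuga
PN-409-3p-335: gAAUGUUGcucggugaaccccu
PN-379-5p-1421: uGGUAGACuguggaacguagg

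The day-50 and day-60 molar RNAs held nearly the same microRNAs. A probe was taken as above background when its mean signal over the blank-spot surface was more than 3 SD of the blank spots, which was met by 335 probes in the day-50 RNA and 319 in the day-60 RNA. Both RNAs met it at 312 probes, the day-50 RNA alone at 23 and the day-60 RNA alone at 7, so 342 of the 742 probes were measured in at least 1 RNA. Some probes read below the blank-spot surface in both columns, such as miR-10a with mean signals of -48.8 in day 50 and -17.7 in day 60. The surface is thus not the floor of the probes, and a probe under the limit may still hold signal. Of the 188 probes for mature pig microRNAs, 103 were measured, 97 of them in both RNAs. The other measured probes were 75 of 193 with a microRNA name and no species prefix, 94 of 157 with the prefix PN and 70 of 204 with the prefix PC. The labels do not explain these prefixes. PN probes carry a microRNA name, and most PC probes carry only an arm and a running number.

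Levels are given as log2 normalised intensity, and since probes hybridise with different strength, a level is set only against the same probe in the other RNA. Across the 312 probes above background in both, the levels of the RNAs correlated at Spearman rho = 0.97 and Pearson r = 0.98, as a description over probes of a shared array. Among the 342 measured probes the median ratio was 0.02, the quartiles were -0.19 and 0.28, and the SD was 0.48. The median size of a ratio was 0.22, beside a median SD of 0.11 over the 4 spots of a probe. Most probes, 295 or 86.3%, differed by less than 1.5-fold. Even so, 233 probes (68.1%) had the same sign in all 4 spots, 132 toward day 50 (38.6%) and 101 toward day 60 (29.5%). Zero on this scale was set by the loess normalisation: centring the array on its median moved the median of the measured probes to 0.37, and leaving the array without normalisation moved it to 0.87. Directions of families are therefore relative to the bulk of the measured probes.

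**Figure D1:**
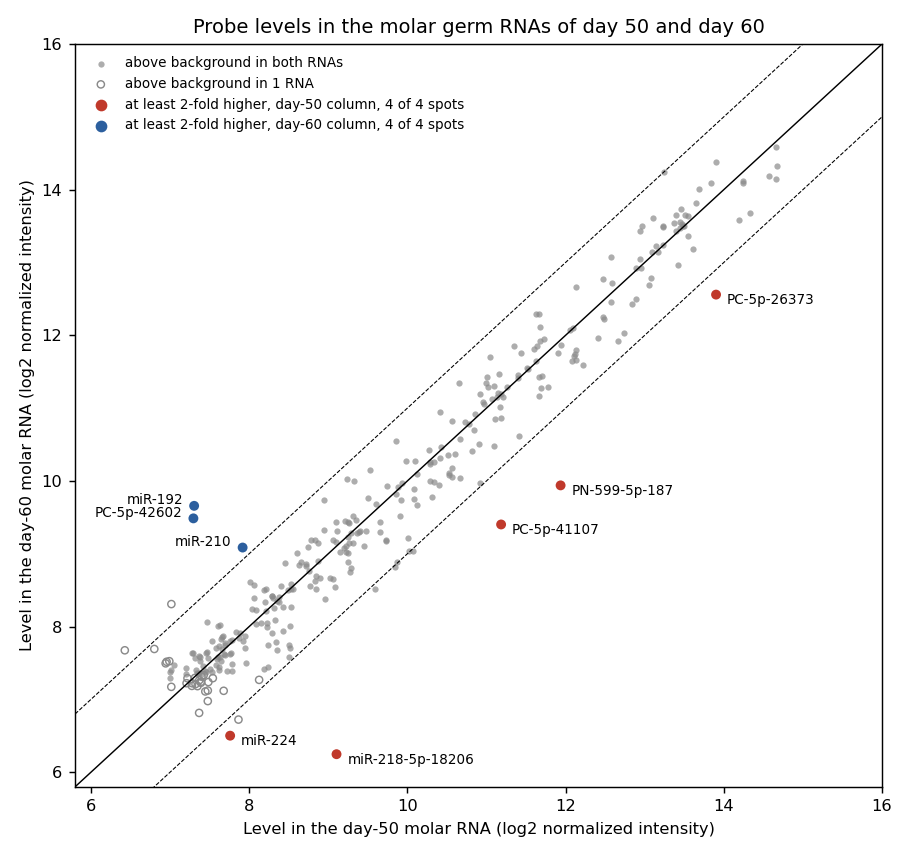
Level of each of the 342 measured probes in the day-60 molar RNA (vertical, log2 normalised intensity) against the day-50 molar RNA (horizontal), with the line of equality and dashed lines at 2-fold. Nearly all points lie between the dashed lines, and the 8 coloured probes, 5 higher in day 50 and 3 higher in day 60, lie outside them in all 4 spots.

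Only a few probes stood well apart. A difference was counted when the probe was above background in at least 1 RNA and at least 2-fold in the same direction in each of its 4 spots. This held for 5 probes higher in the day-50 molar (1.46% of 342) and 3 higher in the day-60 molar (0.877%), or 2.34% in both directions. Among the 103 measured mature pig probes the counts were 1 (0.971%) and 2 (1.94%). Over the same rule, the other 5 arrays, which compare other teeth or other days, had 21 to 57 such probes (3.68 to 12.8% of the probes measured on each). Those arrays measured 378 to 686 probes. Other measures did not place the molar array lowest. Its median size of a ratio, 0.22, lay above the 0.095 to 0.21 of the others, and its SD of 0.48 lay within their 0.45 to 0.80. Of the 5 probes toward day 50, miR-218-5p-18206 and miR-224, the single mature pig probe among them, were not well above background in day 60. Their ratios are bounds, of at least 3.82-fold and 1.502-fold. Where both RNAs had to be above background, the counts were 3 and 3. Just inside the rule were miR-224, with 1.05 in its weakest spot, and miR-210, also with 1.05. Just outside were PN-409-3p-335 (weakest spot 0.998), miR-1306-5p (0.992), miR-335 (0.989), PN-377-3p-18696 (0.981) and miR-31-5p-42472 (0.955).

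miR-192, a microRNA known for its abundance in liver, kidney and gut, had the largest difference toward day 60. Its level was 7.31 in the day-50 RNA and 9.66 in the day-60 RNA, a ratio of -2.35 ± 0.18, or 5.11-fold. The spot intensities before any correction averaged 343 and 570, and the day-50 value lay within the range of the blank-spot surface of its column (216 to 348). On the other 5 arrays miR-192 stayed between -0.06 and 0.19 and was above background in 2 of 10 RNAs. miR-215 carries the same seed and shares a run of 18 of its 21 bases with miR-192, yet it was not well above background in either molar RNA, with raw intensities of 249 and 98.9. miR-194, which is transcribed together with miR-192 and miR-215 in mammals, had no probe by that name among those examined.

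PC-5p-42602 followed nearly the same course. It read 7.30 in day 50 and 9.49 in day 60, a ratio of -2.19 ± 0.08 or 4.56-fold, and it was above background in none of the 10 RNAs on the other arrays. Its target is 17 bases long and its longest run in common with miR-192 is 6 bases. Both probes were thus near background in the day-50 column and well lit in the day-60 column.

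miR-335, which missed the rule by its weakest spot, read 7.02 in day 50, not well above background, and 8.31 in day 60, at least 2.45-fold higher. It was above background in 1 of the 10 RNAs of the other arrays, on which its ratio ran from -0.30 to 0.14.

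miR-210, the microRNA best known for its induction at low oxygen, was the remaining probe of the rule on the day-60 side. It read 7.92 in the day-50 RNA and 9.09 in the day-60 RNA, a ratio of -1.17 ± 0.10, or 2.25-fold. The same probe was brighter in the right column on 4 of the other 5 arrays, where its left-over-right ratio ran from -1.79 to 0.08. After each probe's median ratio on those arrays was taken off, miR-210 no longer reached 2-fold in 4 spots.

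Among probes higher in the day-50 molar, PN-599-5p-187 read 11.94 in day 50 and 9.94 in day 60, a ratio of 2.00 ± 0.17 or 3.99-fold. PC-5p-41107 read 11.18 and 9.40, a ratio of 1.78 ± 0.05. PC-5p-26373 read 13.90 and 12.56, a ratio of 1.34 ± 0.16. These were bright probes, above background in all 10 RNAs of the other arrays, on which their ratios ran from -0.31 to 0.66, from -0.68 to 0.99 and from -0.83 to 0.33.

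miR-224, which studies of enamel-forming cells have examined, was above background in the day-50 RNA only. It read 7.76 in day 50 and 6.50 in day 60, where it was not well above background, so its ratio of 1.26 ± 0.22 is a bound of at least 1.502-fold, taken against the lowest level of any probe above background in that column. Its raw day-60 intensity of 64.8 lay under the lowest point of the blank-spot surface (77.8). On the other 5 arrays the left column was brighter for miR-224 each time, by 0.16 to 0.59. The neural microRNA miR-9, by the probe named miR-9-1, was in the same position with levels of 7.86 and 6.72, at least 1.62-fold higher in day 50. On the other arrays miR-9-1 lay between -0.06 and 0.11 and was above background in 3 of 10 RNAs.

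The probe miR-218-5p-18206 had the largest ratio of the array, 2.86 ± 0.32, with 9.10 in day 50 and 6.25 in day 60, where it was not well above background (at least 3.82-fold). It was also the single probe whose left column was brighter by at least 0.5 on all 6 arrays, by 1.21 to 3.79 on the others. Its day-60 spots read 48.4 before correction, darker than the blank spots around them. The other probe named miR-218-5p shares neither its seed nor a run of more than 3 bases and read 9.60 and 9.68, a ratio of -0.08 ± 0.02.

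**Figure D2:**
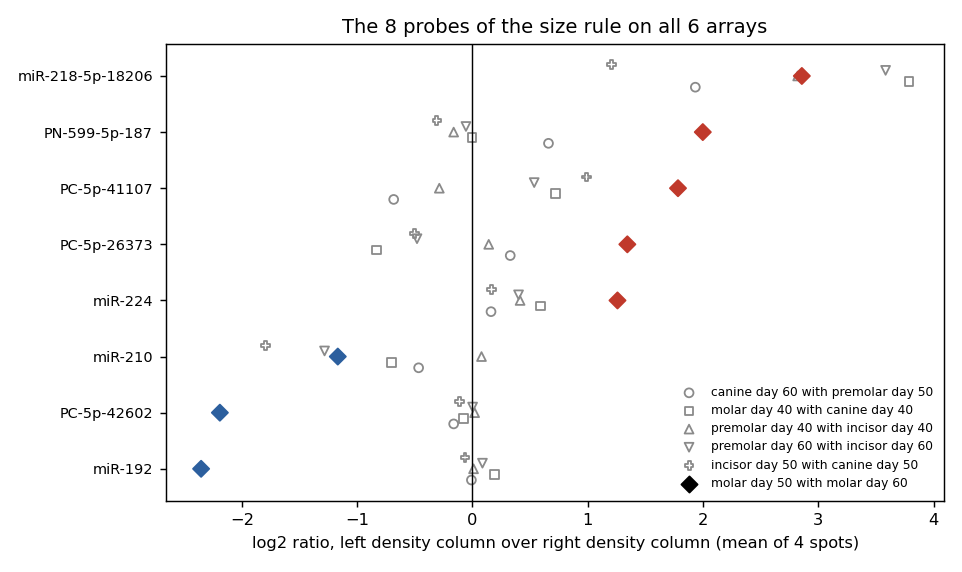
Left-over-right log2 ratio (horizontal, mean of 4 spots) of the 8 probes past the 2-fold rule, on the molar array (diamonds) and on the other 5 arrays (open symbols). miR-192 and PC-5p-42602 lie far left of 0 on the molar array and between -0.16 and 0.19 on the others. There they were above background in 2 and 0 of 10 RNAs, so most of those ratios compare columns near background. miR-218-5p-18206 lies right of 0 on every array.

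Below these, the differences of mature pig microRNAs formed an even slope. Toward day 60, miR-1308 read 13.24 and 14.25, or 2.01-fold with a spot SD of 0.11 (log2), the largest below the rule among mature pig probes above background in both RNAs. Leaving aside miR-181c, miR-181a, miR-148a and miR-205, which are given with their families below, miR-152 read 9.32 and 9.996 (-0.67 ± 0.19) and miR-139-5p 8.01 and 8.61 (-0.60 ± 0.15). miR-574 at -0.50, miR-26a, a repressor of the histone methylase gene EZH2, at -0.48 and the cartilage microRNA miR-140* at -0.42 also lay on this side. One sign in all 4 spots was a condition for naming these probes. Of them, miR-139-5p was brighter in the right column on all of the other 5 arrays too, with ratios of -0.23 to -0.07, and miR-140* lost its direction once the median of the other arrays was taken off (0.14).

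Toward day 50, miR-1306-5p read 9.59 and 8.51 (1.08 ± 0.09), and miR-423-5p read 10.91 and 9.98 (0.94 ± 0.15). miR-1285 read 11.41 and 10.62 (0.79 ± 0.13) although its right column was the brighter one on all of the other arrays. miR-1307 read 8.43 and 7.94 (0.48 ± 0.15). miR-31-5p-42472, for a microRNA expressed in oral and hair epithelium, read 10.07 and 9.04 (1.03 ± 0.07), just short of the rule. The ratios of miR-423-5p and miR-1307 had the same left-over-right sign on the other 5 arrays, from 0.01 to 0.96 and from 0.03 to 0.77.

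**Figure D3:**
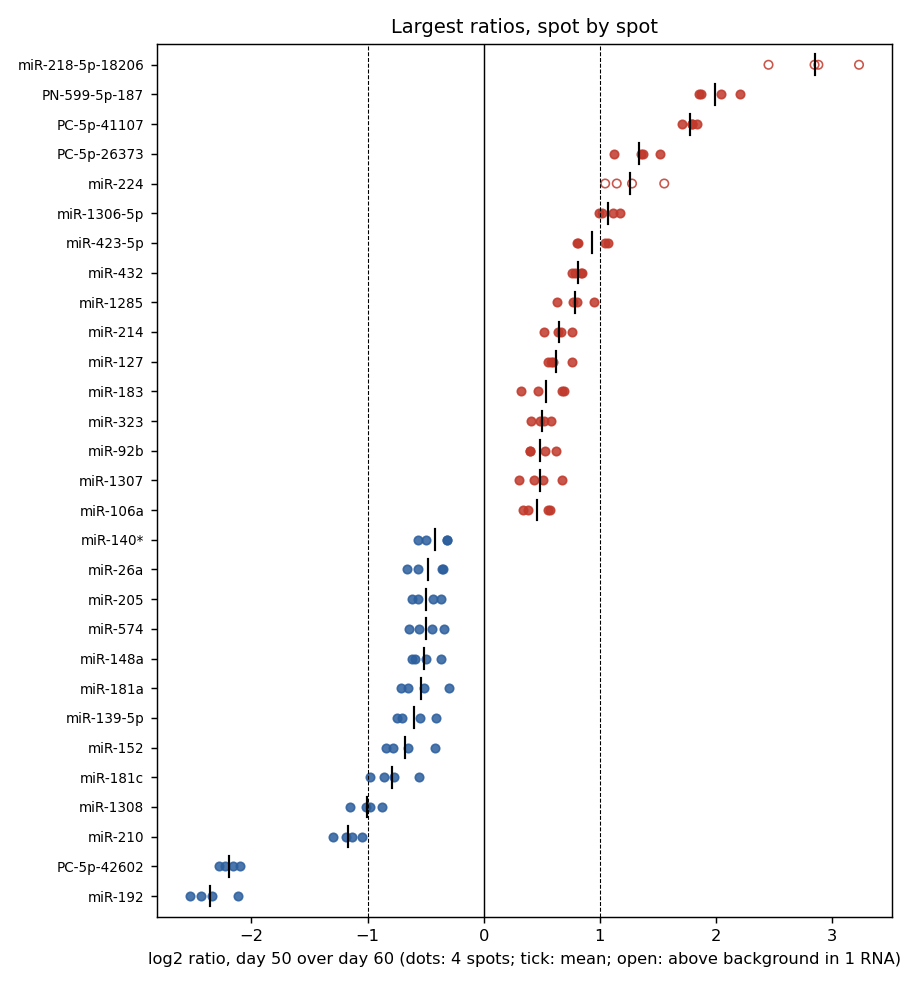
log2 day 50 over day 60 in each of the 4 spots (dots) with their mean (tick), open where 1 RNA was not well above background. Shown are the probes past the rule and the mature pig microRNAs of largest ratio among those above background in both RNAs. The spots of a probe lie close together beside the distance between probes. One sign in all 4 spots was a condition for being shown, so no probe could cross 0.

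The families and markers were read through lists of microRNA names, over all measured probes with a microRNA name (pig, unprefixed and PN probes). Among these 272 probes the median ratio was -0.01, 34.9% had the same sign toward day 50 in all 4 spots and 32.7% toward day 60, and each list is set beside these shares. The probes of a list often share most of their sequence and are not independent. In whole germs, fewer cells of a type and less RNA per cell cannot be told apart.

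Epithelial microRNAs divided into groups that lay on opposite sides. Of 22 probes, 15 were measured, with a median of -0.39, 12 of one sign toward day 60 and 3 toward day 50. All 12 belonged to the miR-200 family, miR-205 and miR-203. miR-205 read 12.58 in day 50 and 13.07 in day 60 (-0.50 ± 0.11), and its other 2 probes gave -0.51 and -0.53. miR-200b read 11.67 and 12.30 (-0.63 ± 0.03 at PN-200b-3p-110), miR-200a 8.95 and 9.74 (-0.79 ± 0.11), and miR-200c 11.68 and 12.12 (-0.44 ± 0.14). These restrain the ZEB1 and ZEB2 genes, whose products repress E-cadherin. The 3 miR-429 probes lay between -0.39 and -0.34, and miR-203, a skin and oral epithelial microRNA that restrains p63, gave -0.29 ± 0.01. The 6 probes of the shared miR-200b, miR-200c and miR-429 seed AAUACUG all lay on the day-60 side, with a median of -0.41, while their median on the other 5 arrays ran from -0.23 to 0.31.

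The 3 epithelial probes on the opposite side were those of the miR-183 and miR-182 pair, which is made from a single transcript with miR-96 and is best known from sensory organs. miR-183 read 10.32 in day 50 and 9.78 in day 60 (0.54 ± 0.18), its second probe gave 0.51 ± 0.13, and miR-182 read 12.22 and 11.59 (0.63 ± 0.05). Their median of 0.54 lay outside the -0.14 to 0.11 seen on the other arrays. miR-184 was not well above background in either RNA.

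Mesenchymal and skeletal microRNAs did not lean as a group: 19 of 35 probes were measured, with a median of -0.02, 5 of one sign toward day 50 and 5 toward day 60. The 5 toward day 50 include miR-218-5p-18206, which is in the list by its name only and was brighter in the left column on all 6 arrays. miR-214, transcribed with miR-199a from an antisense strand of a dynamin gene in mesenchyme, read 14.33 and 13.68 (0.65 ± 0.10), and its second probe gave 0.60 ± 0.14. Its partner stayed near 0, with miR-199a-3p at 13.45 and 13.47 (-0.02 ± 0.12) and miR-199a-5p at 10.77 and 10.78 (-0.01 ± 0.10). The neighbours on that transcript thus read differently on the array, by more than the spread of their spots. miR-21 gave 0.17 ± 0.09 and -0.01 ± 0.08 at its probes, and the smooth-muscle microRNAs miR-143 (-0.13 ± 0.11) and miR-145 (0.07 ± 0.17) stayed within their spot spread of 0 or close to it. PN-140-3p-18, for a microRNA of cartilage, read 7.47 and 8.06 (-0.59 ± 0.18).

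Markers of other cell types were detected unevenly, beside 272 of 538 named probes in all. The muscle list had 2 of 12 probes above background, miR-206 at 8.63 and 8.84 (-0.21 ± 0.07) and PN-1-3p-13186 at 8.29 and 8.43 (-0.14 ± 0.09), while miR-133a and miR-133b were not well above background in either RNA. The blood list had 2 of 9, miR-155-5p-11894 at 9.11 and 9.32 (-0.21 ± 0.12) and the red-cell microRNA miR-451 at 9.31 and 9.52, whose spots ran from -1.66 to 0.30. Of the endothelial list 5 of 6 probes were measured, with a median of 0.08. miR-126, the endothelial microRNA, read 10.41 and 10.94 (-0.53 ± 0.09), and miR-222 read 9.66 and 9.30 (0.36 ± 0.13). Of the neural list 5 of 15 were measured, with a median of 0.13. None of the 5 Hox-cluster probes (miR-10 and miR-196) was above background. In the list of liver, kidney and gut microRNAs, miR-192 and PN-375-3p-3473 were the measured 2 of 9, the second with 8.13 in day 50 and 7.27, not well above background, in day 60.

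The miR-181 family lay on the day-60 side. Of 15 probes, 11 were measured, with a median of -0.42, and 10 had one sign toward day 60. miR-181c read 9.24 in day 50 and 10.03 in day 60 (-0.79 ± 0.18), miR-181a read 12.13 and 12.67 (-0.54 ± 0.18), and miR-181b read 11.72 and 11.95 (-0.22 ± 0.17). miR-181d stood at 10.28 and 10.23 (0.05 ± 0.12), although a PN-181b probe that contains its whole 24-base sequence gave -0.42. The miR-181 genes, best known from lymphocyte development, were also uneven on the other 5 arrays, where their median ran from -1.80 to 1.29.

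The miR-148 and miR-152 seed CAGUGCA, whose members restrain the DNA methylase gene DNMT1, lay on the day-60 side at all 4 of its probes, with a median of -0.46. miR-148a read 8.06 and 8.57 (-0.52 ± 0.12). Their median on the other arrays ran from -0.21 to 0.07. Smaller leanings toward day 60 were seen for miR-23a and miR-23b (-0.25 and -0.27), for the miR-23, miR-24 and miR-27 list (9 of 14 measured, median -0.21, 5 of one sign toward day 60 and 0 toward day 50), for the miR-30 family (7 of 13, median -0.16, 3 and 0) and for the miR-15 and miR-16 seed family (9 of 13, median -0.20, 5 and 0). The last of these turned to 0.18 once the medians of the other arrays were taken off.

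The let-7 family is known to accumulate as cells differentiate. Of 14 probes, 13 were measured, with a median of -0.14, 6 of one sign toward day 60 and 3 toward day 50. Relative to all measured probes its median was -0.16, and it was -0.53 with median centring or no normalisation, -0.40 with the authors' values and near 0 with the other arrays' medians taken off. let-7a read 13.65 and 13.81 (-0.16 ± 0.11) and let-7f 13.37 and 13.54 (-0.17 ± 0.14). let-7e stood on the other side with 12.41 and 11.97 (0.44 ± 0.11), as did miR-99b, its neighbour on a shared transcript, with 11.19 and 10.87 (0.32 ± 0.08). miR-125a, the remaining microRNA of that transcript, gave 0.03 ± 0.12, and miR-125b 14.24 and 14.12 (0.12 ± 0.14). The miR-99, miR-100 and miR-125 list had a median of 0.07 over 7 of 11 probes, 2 of one sign toward day 50 and 1 toward day 60. For the miR-130 and miR-301 family it was -0.06 over 4 of 10, with 1 and 2. MicroRNAs that tooth studies have named, a list that overlaps the epithelial and mesenchymal ones, had a median of 0.07 over 11 of 20, with 5 and 4. The list for low oxygen held miR-210 and miR-210-5p-32608, named for the other arm, which gave 0.02 ± 0.11.

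The list called miR-17 clusters, of growth-promoting microRNAs mostly made in shared transcripts, leaned to day 50. Its member miR-92b shares the seed of miR-92a but was in no cluster of neighbouring genes read here. Of 28 probes, 18 were measured, with a median of 0.40, and 12 had one sign toward day 50 and 0 toward day 60. miR-17-5p read 10.82 and 10.41 (0.41 ± 0.15), miR-106a 10.41 and 9.94 (0.46 ± 0.12), miR-92a 13.06 and 12.69 (0.37 ± 0.11), miR-92b 11.77 and 11.28 (0.49 ± 0.11) and PN-25-3p-43 12.66 and 11.92 (0.74 ± 0.08). miR-20 gave -0.19, from 1 spot at -1.72 and 3 spots between 0.28 and 0.37. The seeds within this list differed in how they read elsewhere. The 7 probes of the miR-17, miR-20, miR-93 and miR-106 seed AAAGUGC had a median of 0.41 here. Their median was also on the left side on all of the other 5 arrays, at 0.33 to 0.92. With the other arrays' medians taken off, their median was -0.01. The 8 probes of the miR-25, miR-92 and miR-363 seed AUUGCAC, with a median of 0.42 here, had medians of -0.34 to 0.30 on the other arrays and 0.63 after the same step. The miR-320 seed AAAGCUG had a median of 0.40 over 6 probes, which became -0.07.

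**Figure D4:**
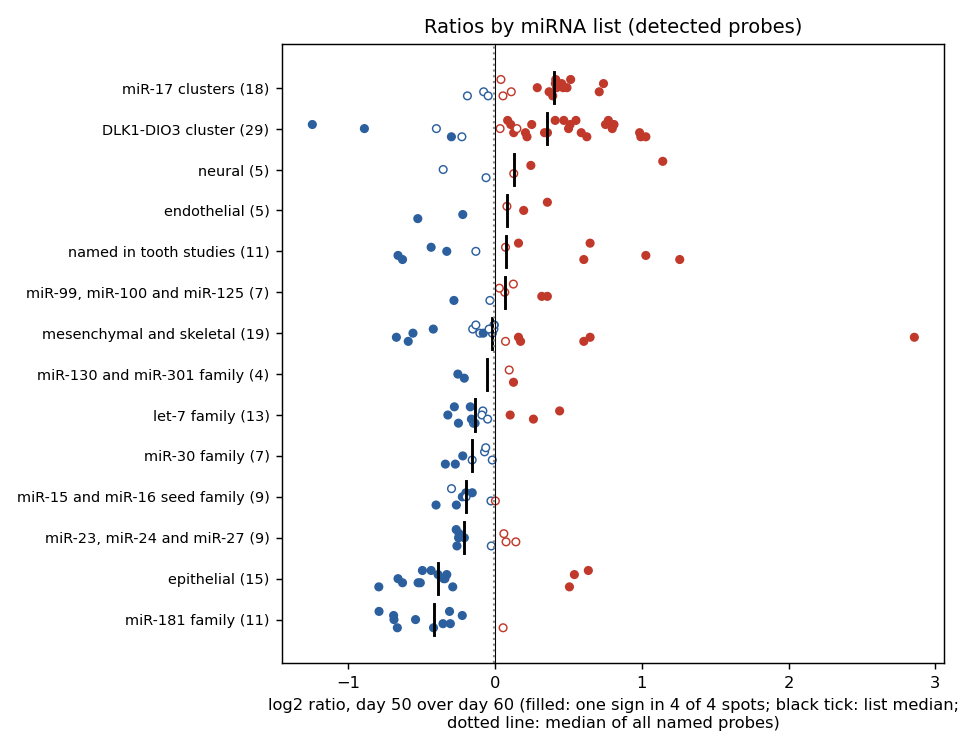
log2 day 50 over day 60 of each measured probe (dots, filled where all 4 spots share a sign) for the lists with at least 4 measured probes, with the number of probes in brackets, the list median (black tick) and the median of all named probes (dotted line). The miR-17 clusters and the DLK1-DIO3 cluster lie right of the dotted line, and the epithelial list and the miR-181 family left of it.

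The DLK1-DIO3 cluster is an imprinted region that is transcribed from the maternal chromosome and yields a long series of microRNAs in embryonic and neural tissues. Of its 65 probes, 29 were measured, with a median of 0.36. Toward day 50, 22 had one sign, and toward day 60, 3 had one. The probes opposite RTL1 stood together, with miR-127 at 10.66 and 10.04 (0.62 ± 0.09), miR-432 at 8.52 and 7.71 (0.81 ± 0.04) and its second probe at 0.75 ± 0.06. Farther along, PN-379-5p-1421 read 10.03 and 9.03 (0.99 ± 0.09), PN-409-3p-335 read 9.85 and 8.82 (1.03 ± 0.04), PN-411-3p-3887 read 8.24 and 7.45 (0.80 ± 0.06) and miR-323 read 8.24 and 7.74 (0.50 ± 0.07). The bright PN-494-3p-3917 stood on the other side with 12.47 and 12.77 (-0.30 ± 0.13). PN-377-3p-18696 and PN-539-3p-9544, at -1.25 and -0.89, were not well above background in the day-50 RNA, and the first was also far brighter on the right on 4 of the other arrays (to -4.17). The list's median on the other arrays ran from -0.29 to 0.15, and taking their medians off left it at 0.39.

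For the epithelial, miR-181, miR-17 and DLK1-DIO3 lists, the side of the list median relative to all measured probes was the same under every scaling and background setting tried. Over measured mature pig probes alone, with a median of -0.01, the last 3 lists had medians of -0.38, 0.39 and 0.56. The epithelial median there was 0.02 over 2 probes, miR-205 and miR-183, of opposite signs. The tooth-study list stood there at 0.36 over 4 probes and the neural list at 0.69 over 2. With the other arrays' medians taken off, the miR-17 list stood at 0.00, beside 0.07 for all measured probes. Those arrays hold other germs, so column and germ cannot be told apart there. By the labels, their left column held Cy3 and that of the molar array Cy5. Taking their medians off therefore need not remove a difference between the dyes.

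Probes for overlapping sequences gave a second view of measurement error. In 72 pairs of probes above background in both RNAs, the target of 1 contains that of the other, and their ratios differed by a median of 0.08 and by 0.35 at the 95th percentile. Of 19 pairs in which at least 1 ratio was 0.5 or more in size, 18 agreed in sign. The exception pair was let-7c, at -0.09, with PC-7c-5p-34268, whose 17 bases lie wholly inside let-7c without its seed and which read 9.73 and 9.19 (0.54 ± 0.08). Ratios were also higher at targets of higher GC content (rho = 0.32 over the 312 probes above background in both, which share the array). The median was -0.11 over the 110 probes of at most 45.5% GC and 0.12 over the 99 of at least 55% GC. The PC probes, richer in GC (median 62.5% beside 47.8%), had a median ratio of 0.11, with 37 of 70 of one sign toward day 50 and 12 toward day 60. The part of base composition in the direction of any single probe was not tested. Spots of the 5S ribosomal RNA, printed as controls, gave ratios of -0.10 ± 0.75, 0.09 ± 0.06, 0.19 ± 0.06 and 0.00 ± 0.53. The spike and calibration controls, given weight 0 in the normalisation, ran from -0.99 to 0.91. Some bright ones departed from 0, in either direction, with PUC2PM at -0.66 ± 0.12 and PUC2MM at -0.67 ± 0.11 over 16 spots each, and a-PUC2PM at -0.62 ± 0.09, Ctr07-3M05 at 0.91 ± 0.20 and Ctr10-3M05 at 0.59 ± 0.17. The labels do not say how much of each was added to either RNA.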

How the data were processed

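The authors deposited spot files with the mean intensity of each spot in each of the 2 density columns, with no background removed, per the file headers. Digit-grouping commas were removed before the values were read. The authors also deposited a table of processed log2 ratios, of unstated scale and centring, used as an alternative. Per the labels' protocols, small RNAs were tailed and tagged for Cy3 or Cy5. For the scanner, image software and normalisation no source used here gives a name. The RNA of a column was taken from its heading.

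Each array had 3968 spots, 716 of them blank. A robust loess surface (span 0.3) through the blank spots of a column was taken as background, followed by normexp with offset 50 and loess within the array with control spots at weight 0 (limma 3.58.1, R 4.3.3), and the 4 spots of a probe were averaged on the log2 scale. On the molar array the blank medians were 273 and 100.1 and their SD 15.0 and 7.73. Summaries used pandas 2.3.3 and scipy 1.17.1 under Python 3.11.15. The steps were tested on simulated data. With 1 RNA per condition no test was run.

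Named were the mature pig probes past the 2-fold rule, those of largest ratio up to 12 per direction, the 6 of highest level per RNA, the 3 of highest level per list, the other probes past the rule and the probe of the column check. The largest ratios were taken among probes above background in both RNAs with one sign in all 4 spots. Members and lists (19 lists) were chosen with earlier results of these data known. The reach of a list over unprefixed and PN probes, the reading of miR-20, miR-18 and miR-135 as their a forms, let-7 names by seed, and all other probes given were chosen after their values were seen. Neighbours come from a RefSeq gene table (Sscrofa11.1) by name, within 10 kb. Alternatives were another background, offset, normalisation, detection limit, size rule and spot summary, each spot left out, and the authors' values. The probe of the column check left out, and each probe's median left-over-right ratio on the other 5 arrays taken off, were added after seeing the data. Those arrays compare other germs, so their median holds biology as well as the column. By the labels, their left column also held the other dye. No paired analysis was possible because there is 1 RNA per condition and no replicate.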

Additional observations from a re-analysis of the deposited data

How the results depend on the processing

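The count toward day 50, 5 probes, became 8 with the median of the blank spots as background, 8 with offset 10, 22 with median centring, 96 with no normalisation, 19 with the authors' values, 3 where both RNAs had to be above background, 9 with the rule on the mean of the spots, 20 at 1.5-fold and 10 with the other arrays' medians taken off. The count toward day 60, 3 probes, became 5 with offset 10, 8 with the authors' values, 6 with the rule on the mean, 11 at 1.5-fold, 7 with the other arrays' medians taken off, and 2 with median centring or no normalisation. With no background removed the counts were 4 and 2. With the other arrays' medians taken off, 3 of the 5 and 2 of the 3 remained, and with no normalisation 5 and 2. The SD of the ratios, 0.48, became 0.44 with no background removed, 0.57 with offset 10, 0.53 with median centring, 0.53 with no normalisation, 1.08 with the authors' values, 0.44 with both RNAs above background, 0.33 with no detection limit and 0.52 with the other arrays' medians taken off. Leaving out each spot in turn gave 5 to 7 and 3 to 4 probes, SDs of 0.47 to 0.49, and 5 to 7 lists above the median of all measured probes, beside 6. That number was 5 to 8 over all settings tried. The lists whose side changed under median centring or no normalisation were miR-99, miR-100 and miR-125, and miR-130 and miR-301. Without the probe of the column check the counts were 4 and 3. Taking the median of the spots in place of the mean, and a limit of 5 SD, left both counts at 5 and 3. The cause of these shifts was not tested. No paired analysis was possible because there is 1 RNA per condition. A ratio against a probe not well above background is a bound.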

Other observations

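Of the 342 probes measured on the molar array, 234 were above background in all 10 RNAs of the other arrays and 4 in none of them. The 4 were PC-5p-42602, PC-5p-58697, PC-7c-5p-34268 and PC-7f-3p-54949. The last read 11.70 in day 50 and 11.45 in day 60 (0.25 ± 0.03), and it was as evenly read across its spots as most microRNAs.

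The spots of 12 measured probes had an SD above 0.5, and in all 12 the farthest spot lay toward day 60, as in miR-20 and miR-451. For PN-1271-5p-24855 the spots were -1.22, 0.67, 0.38 and 0.31. The cause was not tested.

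Of the 233 probes with one sign in all 4 spots, 23 had the same left-over-right sign on all of the other 5 arrays, 15 brighter on the left and 8 on the right. The ratios of the molar array correlated with those of the other arrays at Pearson r = 0.13 to 0.37, left over right, over 296 to 336 probes that share the array design.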
